A study of Homo sapiens with 6 samples.

Results

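The 37 genes described here encode enzymes and carriers of fatty acid synthesis, desaturation, elongation, activation, uptake, oxidation and storage. They were selected by symbol for their known roles, with the fold changes of the same 6 libraries already seen, so their values are given as a description of these libraries and no test of them as a group was made. All 37 were found among the 23346 genes of the deposited table, and 32 passed the filter on low counts (more than 1 CPM, counts per 1000000 counts of the library, in no fewer than 3 of the 6 libraries). The libraries came from BT549, an established mesenchymal-like breast cancer cell line labelled as wild type. In 3 libraries the cells had received 3 siRNAs in equal parts against the zinc finger gene basonuclin-2 (BNC2 siRNA), and in 3 negative control (NC) siRNA. Both groups received 20 nM siRNA and gave RNA 6 d after transfection. All cells had thus been through transfection, and the comparison is one of transient knockdown in 1 cell line. According to the methods, this day was chosen to let the loss of BNC2 spread through gene expression, so later effects are included. The labels name Lipofectamine 2000 as the reagent for the siRNAs, whereas the methods name that reagent for plasmids and RNAiMax for siRNAs. The methods call the replicates biological, but the labels do not say how the cultures were kept apart, and the spread between libraries may be partly technical.

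Fatty acids are made in the cytosol from citrate that leaves the mitochondria. ATP citrate lyase splits citrate into acetyl-CoA, acetyl-CoA carboxylase turns acetyl-CoA into malonyl-CoA, and fatty acid synthase joins these units into palmitate with NADPH as reductant. The product is lengthened by elongases (ELOVL) and given double bonds by desaturases (SCD, FADS) in the endoplasmic reticulum. Acyl-CoA synthetases (ACSL) activate fatty acids for use, carnitine palmitoyltransferases carry them into mitochondria for oxidation, and acyltransferases build them into glycerolipids that can be stored in lipid droplets. Many synthesis genes are known targets of the sterol regulatory element-binding proteins (SREBPs), which often act together with the CCAAT-binding factor NF-Y, and of liver X receptors.

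The libraries held 16093978 to 18246254 counts, at which the 3 counts that a reading of 0 still allows correspond to 0.168 to 0.191 CPM. BNC2 was at 65.6, 51.5 and 58.6 CPM with NC siRNA and at 35.5, 36.6 and 41.6 CPM with BNC2 siRNA, which left 64.6% of the control level. Of 7 epithelial marker genes none passed the filter, and CDH1, EPCAM and ESRP1 each had at most 3 counts over all libraries, while all 7 mesenchymal markers did. Of 12186 genes tested with edgeR's quasi-likelihood test, 72.9% were called, at an adjusted p (Benjamini-Hochberg) not above 0.05. They split into 36.6% called as higher and 36.2% called as lower with BNC2 siRNA, and in 74.9% the 2 groups of 3 libraries did not overlap. A call was thus common in this comparison. The middle 50% of all genes had log2 fold changes from -0.44 to 0.44, and the middle 90% from -1.54 to 1.22.

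Most genes of the first steps of fatty acid synthesis and of desaturation were higher after BNC2 knockdown, led by FASN, SCD and ACACA. The genes of uptake and binding had few reads in every library. Of the 32 genes tested, 18 rose (56.2%), 9 fell (28.1%) and 5 were not called, and in 28 the groups did not overlap. Of these, CD36 and FABP4 passed the filter through the control libraries alone, and without them 30 genes were tested, of which 18 rose, 7 fell and 26 had groups without overlap. The median log2 fold change of the 32 was 0.35, and that of all genes was 0.00. Because these genes were chosen with the fold changes known, nothing is read from their share of calls against the 72.9% of all genes. In several steps, enzymes of the same kind went opposite ways: SCD rose and SCD5 fell, ACSL3 rose and ACSL1 fell, and DGAT2 rose and DGAT1 fell. In bulk RNA, fewer cells of a kind and less RNA per cell cannot be told apart, which holds for every level below.

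**Figure D1:**
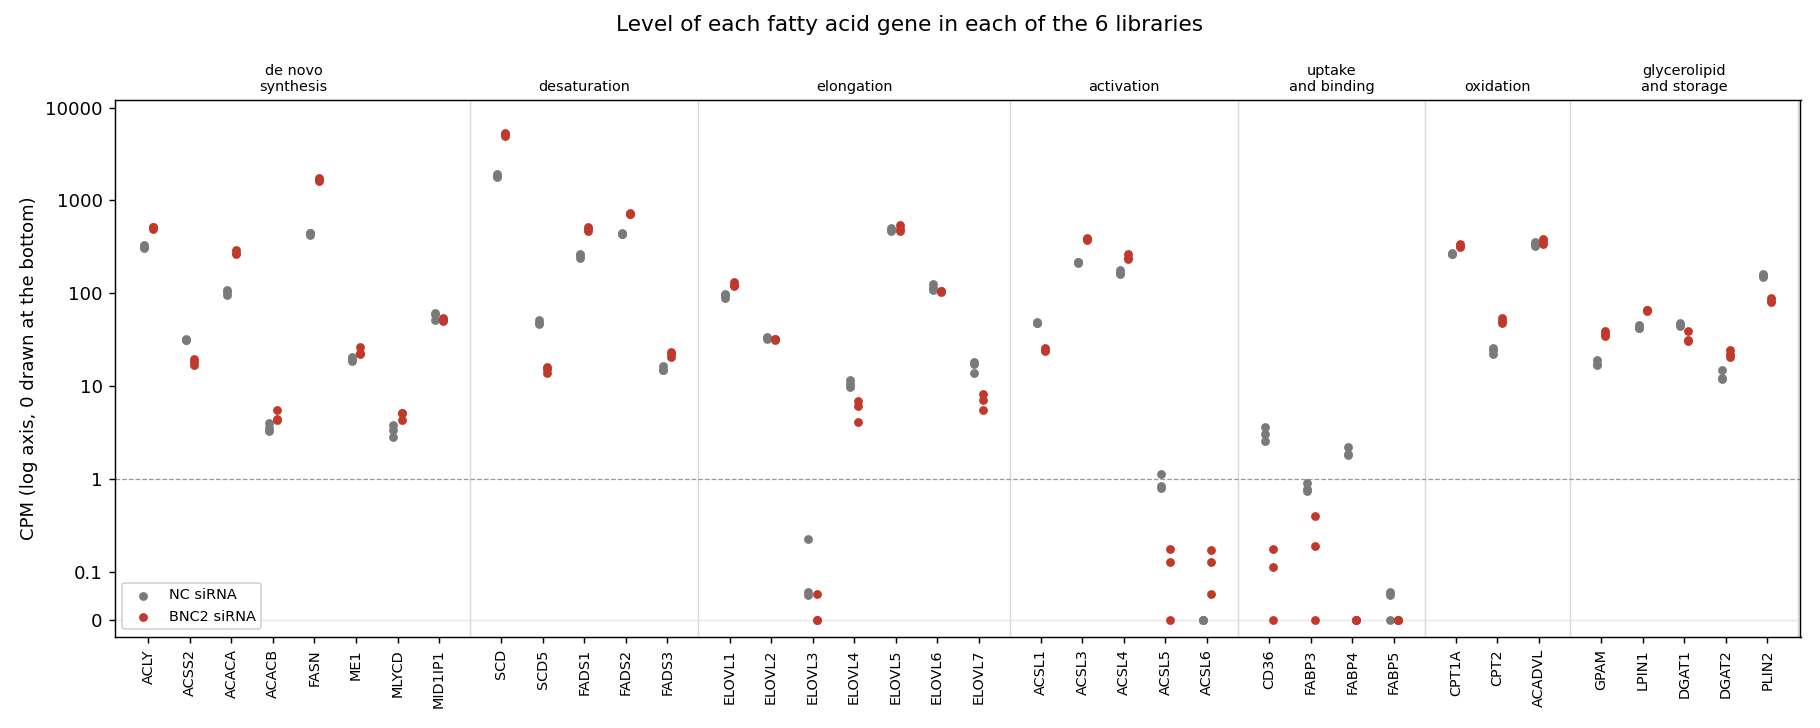
Level of the 37 genes in each library, in CPM on a log axis with 0 drawn at the bottom, grouped by role. Grey points are the 3 NC siRNA libraries, red points the 3 BNC2 siRNA libraries, and the dashed line marks 1 CPM. FASN and SCD reach 1606 to 1746 and 5016 to 5336 CPM with BNC2 siRNA, while CD36 and FABP4 drop from above 1 CPM to below 0.2 CPM.

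FASN, the fatty acid synthase that makes palmitate, lies on chromosome 17 of GRCh37 from 80036214 to 80056170 on the minus strand. It was at 449, 448 and 420.1 CPM with NC siRNA and at 1746, 1606 and 1707 CPM with BNC2 siRNA. The groups were far apart, with a log2 fold change of 1.94 (SE, the standard error, 0.06), the largest rise among the 37 genes, or 3.84-fold. ACACA, the cytosolic acetyl-CoA carboxylase that supplies malonyl-CoA (chromosome 17 from 35441927 to 35766927, minus strand), was at 109, 102 and 95.7 CPM with NC siRNA and at 265, 273 and 292 CPM with BNC2 siRNA. Each knockdown library was above each control library, and the log2 fold change was 1.44 (SE 0.06). ACLY, which makes cytosolic acetyl-CoA from citrate (chromosome 17 from 40023170 to 40086795, minus strand), was at 330.0, 316 and 308 CPM with NC siRNA and at 497, 515 and 520.0 CPM with BNC2 siRNA. It rose by a log2 fold change of 0.68 (SE 0.05), again with no overlap.

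ACSS2, which makes acetyl-CoA from acetate instead of citrate, went the other way. It was at 31.2, 32.5 and 31.6 CPM in the control libraries and at 16.7, 19.5 and 17.96 CPM in the knockdown libraries, a log2 fold change of -0.82 (SE 0.09). It was the only gene of the synthesis group that fell. MLYCD and ACACB, which break and make malonyl-CoA, were below 6 CPM in every library. The decarboxylase MLYCD was at 2.82, 3.36 and 3.85 CPM with NC siRNA and at 4.36, 5.19 and 5.16 CPM with BNC2 siRNA, and rose by a log2 fold change of 0.55 (SE 0.17).

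ACACB, the carboxylase of the mitochondrial surface, rose less (log2 fold change 0.41, SE 0.17), with levels of 3.25 to 3.98 CPM with NC siRNA and 4.29 to 5.58 CPM with BNC2 siRNA. Its call rested on the setting. It was lost with DESeq2 (0.40), with total-count scaling (0.33), with a replicate block (0.41), without NC siRNA replicate 1 (0.39) or 3 (0.35) and without BNC2 siRNA replicate 1 (0.28). ME1, the malic enzyme that yields NADPH in the cytosol, rose by 0.28 on the log2 scale (SE 0.09), and this call was lost without BNC2 siRNA replicate 2 (0.20) and with total-count scaling (0.20). MID1IP1, which promotes the assembly of acetyl-CoA carboxylase into filaments, was not called (log2 fold change -0.13, SE 0.08). It was called as lower without NC siRNA replicate 1 (-0.21) and with total-count scaling (-0.21). Of the 8 synthesis genes, 6 rose, 1 fell and 1 was not called. Their median log2 fold change was 0.48.

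SCD, the stearoyl-CoA desaturase that turns saturated into monounsaturated fatty acids, was the most abundant of the 37 genes per length. It lies on chromosome 10 of GRCh37 from 102106990 to 102124583 on the plus strand. Its level was 1936, 1790 and 1815 CPM with NC siRNA and 5016, 5336 and 5177 CPM with BNC2 siRNA. The groups did not overlap, and the log2 fold change was 1.49 (SE 0.06), or 2.80-fold. By mean CPM, SCD moved from rank 27 to rank 6 among all genes tested, and FASN from rank 294 to rank 42.

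SCD5, the other human stearoyl-CoA desaturase (chromosome 4 from 83550692 to 83719949, minus strand), fell. It was at 51.8, 47.0 and 47.5 CPM with NC siRNA and at 13.9, 15.4 and 15.9 CPM with BNC2 siRNA. Each knockdown library was below each control library, with a log2 fold change of -1.70 (SE 0.08). The ranks among all genes tested and the sum over the 37 genes use CPM, in which longer transcripts weigh more. Shares within enzyme families and ranks among the 37 genes use levels divided by the length of the canonical transcript. On this per-length scale SCD5 made up 4.35% ± 0.05 (SD, n = 3) of the sum of both desaturases in control cells and 0.499% ± 0.03 (SD, n = 3) after knockdown.

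The 3 FADS genes, of which FADS1 and FADS2 introduce further double bonds into polyunsaturated fatty acids, all rose. FADS1, the delta-5 desaturase, was at 259, 238 and 265 CPM with NC siRNA and at 475, 518 and 496 CPM with BNC2 siRNA (log2 fold change 0.97, SE 0.06). FADS2, the delta-6 desaturase, was at 436, 446 and 437 CPM with NC siRNA and at 722, 739 and 712 CPM with BNC2 siRNA (log2 fold change 0.72, SE 0.05). FADS3, which acts on sphingoid bases, at 14.8, 16.6 and 14.9 CPM with NC siRNA and at 22.0, 20.4 and 23.2 CPM with BNC2 siRNA, rose by a log2 fold change of 0.50 (SE 0.09). In none of these genes did the groups overlap. FADS1 and FADS2 lie next to each other on opposite strands of chromosome 11 and overlap in the annotation, from 61567099 to 61596790 and from 61560452 to 61634826. The deposited counts use the strand, so reads of one gene were not counted on the other.

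The elongases did not move as one. Of 7 genes 6 were tested, of which 1 rose, 2 fell and 3 were not called. Their median log2 fold change was -0.09. ELOVL1, which elongates saturated and monounsaturated chains to very long ones, was at 89.2 to 97.4 CPM with NC siRNA and at 120.5 to 133 CPM with BNC2 siRNA (log2 fold change 0.42, SE 0.06). ELOVL7, which elongates saturated long chains, fell from 18.1, 17.3 and 13.9 CPM to 5.58, 8.29 and 7.004 CPM, a log2 fold change of -1.24 (SE 0.14). ELOVL4, which makes the longest chains, fell from 11.6, 9.75 and 10.5 CPM to 4.13, 6.15 and 6.94 CPM, a log2 fold change of -0.89 (SE 0.16). Both were without overlap, though the knockdown libraries differed among themselves, with replicate 1 the lowest in each gene.

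The elongases that were not called included ELOVL5, the most abundant of the family per length. This enzyme elongates polyunsaturated chains, and its transcript was at 474 to 509.8 CPM with NC siRNA and at 474 to 538 CPM with BNC2 siRNA. The groups overlapped, the log2 fold change was 0.04 (SE 0.06), and its sign turned under total-count scaling (-0.04) and without BNC2 siRNA replicate 3 (-0.01). ELOVL6, which lengthens palmitate to stearate, was at 108 to 125 CPM with NC siRNA and at 102 to 106 CPM with BNC2 siRNA. Its groups did not overlap but lay close (log2 fold change -0.14, SE 0.06), and it was called as lower without NC siRNA replicate 3 (-0.18), with total-count scaling (-0.22) and with DESeq2's size factors (-0.15). ELOVL2, which elongates long polyunsaturated chains, had a log2 fold change of -0.04 (SE 0.07). ELOVL3 had 4, 1 and 1 counts with NC siRNA and 1, 0 and 0 counts with BNC2 siRNA, and was not tested.

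Of the acyl-CoA synthetases, ACSL3, an enzyme of the endoplasmic reticulum and lipid droplets, was at 217, 209.8 and 217 CPM with NC siRNA and at 373, 390.1 and 386 CPM with BNC2 siRNA. It rose by a log2 fold change of 0.84 (SE 0.05). ACSL4, which prefers arachidonic acid and other polyunsaturated fatty acids, was at 179, 162 and 165 CPM with NC siRNA and at 237, 238 and 266 CPM with BNC2 siRNA (log2 fold change 0.55, SE 0.06). ACSL1, a main synthetase of liver, fat and muscle, fell from 47.8, 48.0 and 49.0 CPM to 23.9, 25.5 and 24.3 CPM (log2 fold change -0.98, SE 0.07). The groups were apart in all 3 genes. ACSL5 and ACSL6 did not pass the filter. ACSL5 had 14, 20 and 14 counts with NC siRNA and 3, 0 and 2 counts with BNC2 siRNA, a ratio of 9.30 with a 95% counting interval of 3.72 to 29.9. ACSL6 had no counts with NC siRNA and 1, 3 and 2 counts with BNC2 siRNA, which is at the floor of 3 counts per library.

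**Figure D2:**
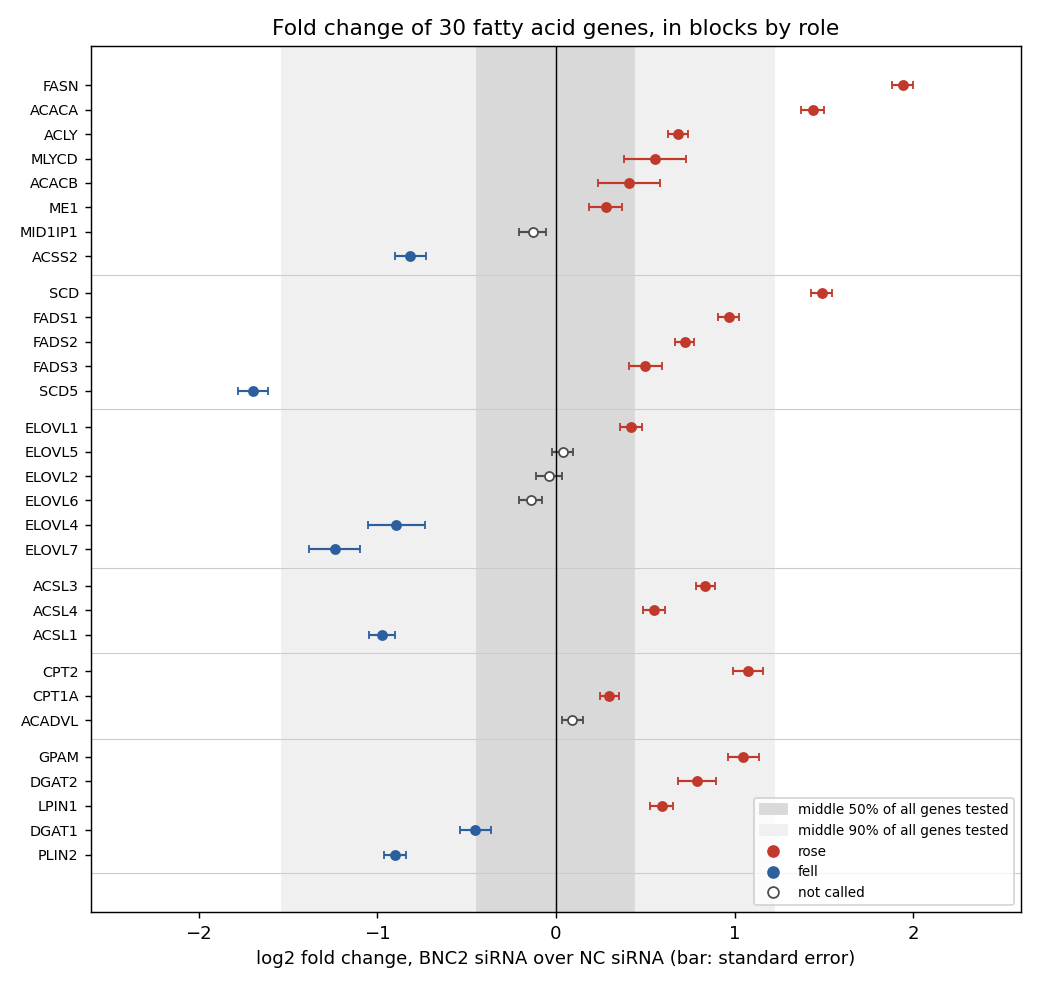
Log2 fold change of BNC2 siRNA over NC siRNA with its SE for 30 of the 32 genes tested, in blocks of de novo synthesis, desaturation, elongation, activation, oxidation, and glycerolipid and storage genes from top to bottom. CD36 and FABP4 are left out because 1 or more of their knockdown libraries had no counts. Grey bands hold the middle 50% and 90% of all genes tested, and FASN (1.94), SCD (1.49) and ACACA (1.44) on the right and SCD5 (-1.70) on the left lie outside both.

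The genes of fatty acid uptake and binding had few reads, and most of them were in the control libraries. CD36, a scavenger receptor that takes up long-chain fatty acids (chromosome 7 from 79998891 to 80308593, plus strand), had 45, 64 and 51 counts with NC siRNA and 3, 2 and 0 counts with BNC2 siRNA. Scaled to library size, this is a 31.0-fold lower level with a 95% interval of 13.0 to 96.8 that covers counting error only. FABP4, a fatty acid-binding protein of adipocytes and macrophages, had 39, 33 and 30 counts with NC siRNA and no count in any BNC2 siRNA library. Against 3 counts per library it was at least 11-fold lower. Both passed the filter through the control libraries alone and so had to differ, and their calls are not used as support. FABP3, the heart-type binding protein, had 13, 16 and 13 counts with NC siRNA and 0, 7 and 3 counts with BNC2 siRNA, a ratio of 4.07 with a counting interval of 2.01 to 9.10, and was not tested.

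FABP5, the epidermal-type binding protein, had 1, 0 and 1 counts with NC siRNA and none with BNC2 siRNA. Of the windows of 75 bases along its canonical transcript, 95.2% have an exact copy elsewhere in GRCh37, and the counts hold reads that map to 1 place. These counts therefore say little about its level. In each of the other 36 genes at most 3.12% of such windows had a copy.

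Because CD36 and FABP4 also mark other cells, markers of these were read beside them. Of 6 adipocyte markers 1 (LIPE) passed the filter, ADIPOQ, LEP and CIDEA had at most 3 counts over all 6 libraries, and the sum over the 6 was 2.35 to 2.59 CPM with NC siRNA and 1.13 to 1.46 CPM with BNC2 siRNA. Of 5 macrophage markers CD68 and CD14 passed, MARCO was at or near 0, and PTPRC and CSF1R stayed below 0.7 CPM in each library. CD14 was at 1.39 to 2.03 CPM with NC siRNA and at 0.508 to 0.700 CPM with BNC2 siRNA. The sum over the 5, nearly all of it CD68, was 113 to 127 CPM with NC siRNA and 139 to 151 CPM with BNC2 siRNA. Apart from LIPE, CD68 and CD14, each of these markers was below 1 CPM in every library of both groups.

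The 3 oxidation genes among the 37 did not fall. CPT2, the inner-membrane carnitine palmitoyltransferase, was at 22.3, 25.8 and 24.6 CPM with NC siRNA and at 54.7, 50.8 and 47.6 CPM with BNC2 siRNA. The groups were apart, with a log2 fold change of 1.08 (SE 0.08). CPT1A, the outer-membrane enzyme that malonyl-CoA inhibits and that sets the rate of entry, was at 262 to 274 CPM with NC siRNA and at 318 to 342 CPM with BNC2 siRNA, a smaller rise of 0.30 on the log2 scale (SE 0.05). ACADVL, which starts the oxidation of long chains, was not called (log2 fold change 0.09, SE 0.06), and its groups overlapped.

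Among genes of glycerolipid synthesis, GPAM, the mitochondrial acyltransferase of the first step, was at 19.3, 17.1 and 17.0 CPM with NC siRNA and at 34.4, 36.6 and 39.6 CPM with BNC2 siRNA. It rose by a log2 fold change of 1.05 (SE 0.09). LPIN1, a phosphatidate phosphatase that makes diacylglycerol, was at 45.2, 42.5 and 42.3 CPM with NC siRNA and at 64.7, 65.8 and 65.5 CPM with BNC2 siRNA (log2 fold change 0.59, SE 0.07). In both genes the groups were apart.

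The enzymes of the last step to triacylglycerol went opposite ways. DGAT2, which is linked to newly made fatty acids, was at 12.3, 14.8 and 12.0 CPM with NC siRNA and at 24.7, 22.5 and 20.5 CPM with BNC2 siRNA (log2 fold change 0.79, SE 0.11). DGAT1, which also handles fatty acids from outside the cell, was at 45.3, 44.9 and 48.3 CPM with NC siRNA and at 38.8, 30.8 and 31.7 CPM with BNC2 siRNA (log2 fold change -0.45, SE 0.09). PLIN2, the coat protein of lipid droplets that is found in most cell types, fell from 151, 159 and 161 CPM to 88.8, 83.4 and 80.3 CPM, a log2 fold change of -0.90 (SE 0.06). In all 3 genes the groups were without overlap. PLIN2 was thus lower in the same libraries in which FASN and SCD were higher.

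Summed over the 37 genes, the level was 5683 ± 91.4 CPM (SD, n = 3) with NC siRNA and 11424 ± 150.0 CPM (SD, n = 3) with BNC2 siRNA, 2.01-fold higher. SCD and FASN made up 79.7% of this gain. SCD alone went from 32.5% to 45.3% of the sum, and FASN from 7.73% to 14.8%. Without these 2 genes the sum went from 3397 ± 20.8 to 4562 ± 63.2 CPM (SD, n = 3 each), 1.34-fold.

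Per kilobase of transcript, SCD was the highest of the 37 genes in both groups, at 352 ± 14.9 and 987 ± 30.4 CPM per kb (SD, n = 3 each). FASN moved from the ninth to the third place, from 51.9 to 199 CPM per kb, and FADS2 to the second, from 142 to 234 CPM per kb. ELOVL5 was at 177 CPM per kb in control cells and at 181 CPM per kb after knockdown, and ACADVL at 155 and 165 CPM per kb. PLIN2 went from 82.8 to 44.4 CPM per kb.

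The make-up of the enzyme families on this per-length scale showed where the sums changed hands. ACSL1 made up 15.1% ± 0.49 (SD, n = 3) of the ACSL family in control cells and 5.26% ± 0.23 after knockdown, while ACSL3 went from 44.6% ± 0.63 to 54.6% ± 1.34. ACSL4 was at 40.0% ± 1.15 and 40.1% ± 1.56, a difference below the spread between libraries. DGAT2 went from 30.0% ± 3.08 to 50.4% ± 1.87 of both DGAT genes, so that the 2 were nearly equal per length after knockdown. This rests on the canonical lengths: in mean CPM with BNC2 siRNA, DGAT1 stayed above DGAT2 (33.75 and 22.56). ELOVL5 held most of the elongase sum in both groups, with 64.4% ± 0.75 and 61.5% ± 2.16, and ELOVL1 the next share, with 23.3% ± 0.82 and 29.1% ± 2.23. ACACB was a minor form of acetyl-CoA carboxylase in both groups (3.61% ± 0.35 and 1.81% ± 0.34).

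**Figure D3:**
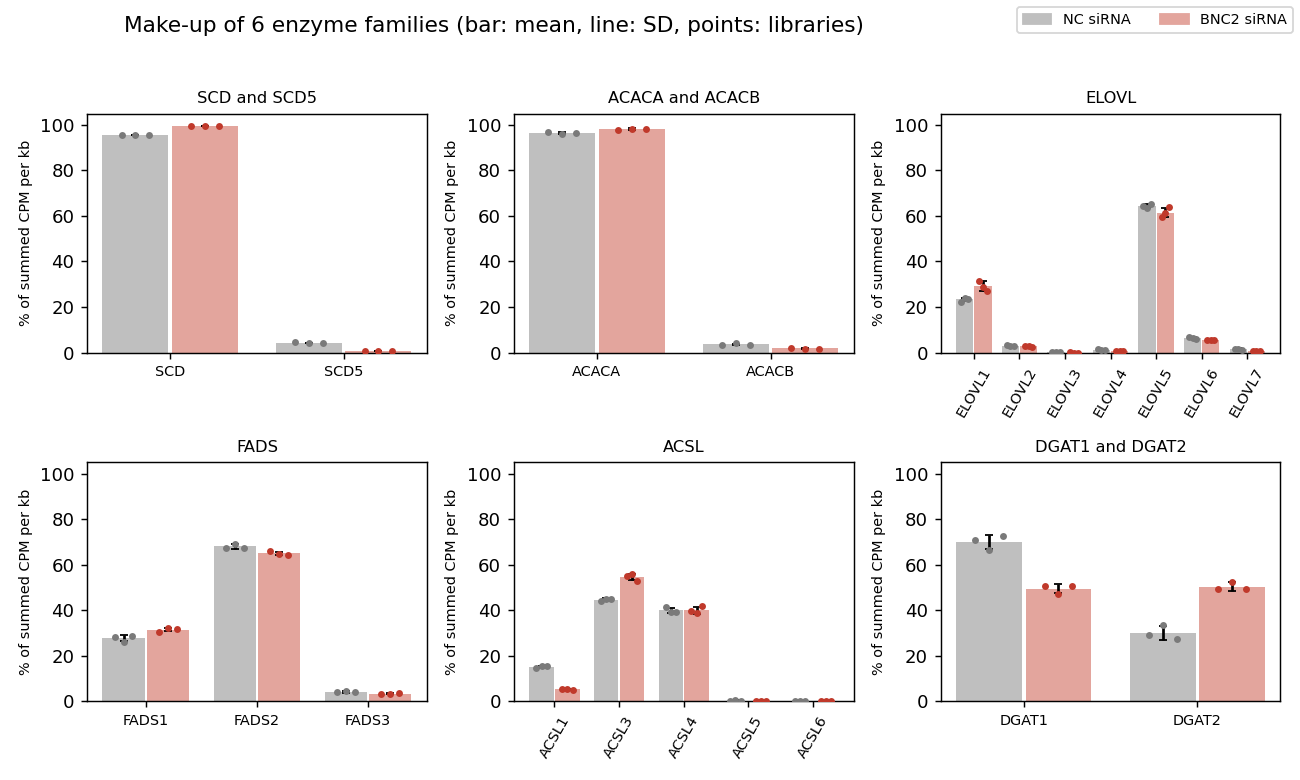
Share of each gene in the summed CPM per kb of its enzyme family, for NC siRNA (grey) and BNC2 siRNA (red). Bars are means of 3 libraries, lines SD and points the libraries. SCD takes 95.6% and 99.5% of the SCD genes, while DGAT1 goes from 70.0% to 49.6% and ACSL1 from 15.1% to 5.26% of their families.

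Genes of the same pathways outside the 37 were taken as 5 lists with 119 genes, also drawn up with results of these libraries known, of which 92 were tested. Of these 39 rose (42.4%), 29 fell (31.5%) and 24 were not called. Their median log2 fold change was 0.11. The share called, 73.9%, was close to the 72.9% of all genes. Adjusted p-values in this part come from edgeR's quasi-likelihood test with Benjamini-Hochberg adjustment over all genes tested.

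Of 27 other oxidation genes 23 were tested, of which 8 rose, 7 fell and 8 were not called (median 0.15). ECI1, which moves double bonds during the oxidation of unsaturated fatty acids, went from 4.51, 6.11 and 5.18 CPM to 18.7, 16.02 and 14.8 CPM (log2 fold change 1.65, SE 0.14, adjusted p = 1.31e-08). ETFB, a subunit of the flavoprotein that takes electrons from the dehydrogenases, rose 2.02-fold (adjusted p = 1.07e-08). HADHB, a subunit of the trifunctional protein, fell by 0.40 on the log2 scale (SE 0.06, adjusted p = 2.66e-05). The shares of this list that rose (34.8%) and fell (30.4%) were near or below those of all genes (36.6% and 36.2%).

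The partners of synthesis, which supply precursors and NADPH or complete the elongation cycle, comprised 18 genes with 16 tested, of which 8 rose (50%, against 36.6% of all genes), 5 fell (31.2%, against 36.2%) and 3 were not called (median 0.18). SLC25A1, the carrier that exports citrate from mitochondria, rose from 52.5, 58.5 and 52.9 CPM to 84.4, 78.7 and 73.7 CPM (log2 fold change 0.53, SE 0.07, adjusted p = 3.98e-06). HSD17B12, the ketoreductase of the elongation cycle, rose by 0.82 (SE 0.09, adjusted p = 2.43e-07). PGD, a pentose phosphate enzyme that yields NADPH, fell from 572, 574 and 570.2 CPM to 141, 145 and 148 CPM, 3.96-fold lower (log2 fold change -1.98, SE 0.05, adjusted p = 2.02e-14). The groups were far apart, in the direction opposite to FASN, which uses NADPH.

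Of 29 other genes of glycerolipids, droplets and lipolysis 17 were tested, of which 5 rose, 7 fell and 5 were not called (median 0.01). The share called, 70.6%, was near the 72.9% of all genes. The acyltransferases AGPAT4 and AGPAT1, which make phosphatidate, rose by log2 fold changes of 0.73 (SE 0.08, adjusted p = 5.19e-07) and 0.63 (SE 0.06, adjusted p = 6.33e-08). PNPLA2, the triglyceride lipase that opens lipolysis, fell from 61.4, 70.1 and 71.9 CPM to 39.7, 35.5 and 31.3 CPM (log2 fold change -0.93, SE 0.09, adjusted p = 6.23e-08). ABHD5, its coactivator, fell by 0.49 (SE 0.07, adjusted p = 6.25e-06). Of the droplet coat genes, PLIN2 fell as given above, while PLIN3, named here after its values were seen, rose from 168, 187 and 175 CPM to 265, 245 and 234 CPM (log2 fold change 0.49, SE 0.06, adjusted p = 2.11e-06). Only 3 genes of this list rose under total-count scaling, and 4 fell without BNC2 siRNA replicate 2.

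Of 20 other genes of uptake, binding and thioester hydrolysis 14 were tested, of which 5 rose, 5 fell and 4 were not called (median -0.07). The share called, 71.4%, was near that of all genes, as was the 35.7% in each direction. VLDLR, the receptor of very low density lipoprotein, rose from 37.3, 35.6 and 39.6 CPM to 78.9, 79.9 and 82.1 CPM (log2 fold change 1.10, SE 0.07, adjusted p = 2.72e-10). SLC27A1, a fatty acid transporter, rose by 0.61 (SE 0.11, adjusted p = 1.02e-04). The thioesterase ACOT7 fell from 77.3, 91.2 and 81.5 CPM to 37.2, 35.0 and 33.8 CPM (log2 fold change -1.24, SE 0.07, adjusted p = 2.98e-10). DBI, which binds acyl-CoA, fell by 0.24 (SE 0.06, adjusted p = 1.85e-03). The number that fell was 3 without NC siRNA replicate 2 and without BNC2 siRNA replicate 2 or 3.

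Of 25 regulators 22 were tested, of which 13 rose (59.1%, against 36.6% of all genes), 5 fell (22.7%, against 36.2%) and 4 were not called (median 0.47). SREBF1, which encodes the SREBP that drives fatty acid synthesis, was at 85.7, 91.9 and 83.6 CPM with NC siRNA and at 357, 322 and 323 CPM with BNC2 siRNA. It was 3.83-fold higher (log2 fold change 1.94, SE 0.06, adjusted p = 1.51e-13). SREBF2, the SREBP of cholesterol synthesis, rose by 0.70 (SE 0.06, adjusted p = 1.34e-08). Of the liver X receptors, NR1H2 rose by 0.78 (SE 0.06, adjusted p = 1.20e-08) and NR1H3, at 0.958 to 1.58 CPM over all libraries, was not called (log2 fold change -0.02, SE 0.29, adjusted p = 0.945). These are transcript levels, and the processing and activity of the proteins were not measured in these libraries.

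PRKAA2, a catalytic subunit of the AMP-activated kinase that inhibits acetyl-CoA carboxylase, rose from 1.30, 1.46 and 1.45 CPM to 11.9, 13.9 and 15.5 CPM (log2 fold change 3.29, SE 0.17, adjusted p = 3.61e-11). PRKAA1, the other catalytic subunit, named here after its values were seen, fell from 96.3, 76.5 and 77.4 CPM to 56.0, 66.2 and 71.3 CPM (log2 fold change -0.37, SE 0.10, adjusted p = 0.00211). PPARA, a receptor known for inducing oxidation genes, rose from 9.46, 9.02 and 9.33 CPM to 33.7, 35.1 and 36.2 CPM (log2 fold change 1.91, SE 0.09, adjusted p = 1.00e-11). Its relatives differed. PPARD fell by 0.39 (SE 0.07, adjusted p = 9.12e-05), and PPARG, known for inducing FABP4 and CD36 in adipocytes, was not called (log2 fold change -0.12, SE 0.09, adjusted p = 0.263). MLXIP, a glucose-responsive factor, fell by 0.87 (SE 0.08, adjusted p = 2.78e-08). MLXIPL had 5, 4 and 3 counts with NC siRNA and 0, 3 and 2 counts with BNC2 siRNA and was not tested.

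**Figure D4:**
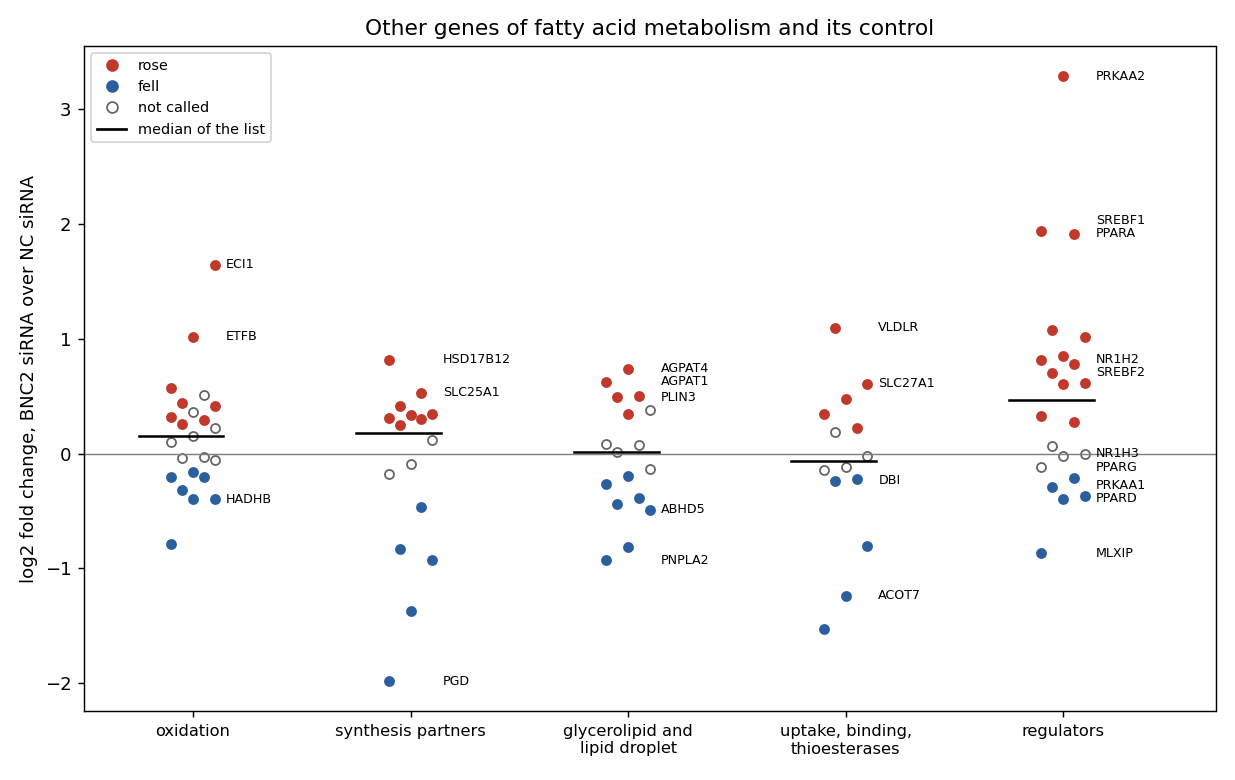
Log2 fold change of 92 further genes of fatty acid metabolism in 5 lists, with the genes named in the text labelled at the right of each list. Filled points were called (red higher, blue lower with BNC2 siRNA), open points were not, and black lines are list medians. The medians run from -0.07 to 0.47, PRKAA2 (3.29), SREBF1 (1.94) and PPARA (1.91) are at the top and PGD (-1.98) at the bottom.

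Since the SREBF genes rose with FASN, SCD and ACACA, the start regions of the 37 genes were searched for the motifs of their known regulators. RefSeq (GRCh38.p14) gave 57 regions for 32 genes, each from 250 bases before to 50 bases after a start site. FASN, DGAT1, DGAT2, FABP4 and FABP5 were not matched. The sterol regulatory element was searched as TCACNCCAC and the NF-Y box as CCAAT, both on either strand and with no overlap between the motifs. CCAAT was found in 20 of 57 regions (35.1%), where 34.6% of all 35116 regions and 37.3% of the 8772 regions of genes tested hold it. It was in 12 of 23 regions of genes that rose, 5 of 17 of genes that fell and 2 of 6 of genes not called. These regions are not all separate sequences, since those of ACLY overlap and hold the same CCAAT sites. Several regions of genes that fell belong to CD36, which passed the filter through the control libraries alone. TCACNCCAC was found in 3 of 57 regions (5.26%), against 1.13% of all regions and 1.16% of those of genes tested, and these belong to ACSL1, which fell, ACSL6, which was not tested, and MID1IP1, which was not called. None of the 23 regions of genes that rose held this sequence, and FASN had no region to search. At a share of 1.13% of all regions, none would be usual in so few, so nothing is read from this. CACGTG, the E-box, was in 3 of 57 regions (5.26%, against 7.26% of all and 10.2% of tested genes), and GGGCGG, the GC box, in 35 of 57 (61.4%, against 45.0% of all and 71.3% of tested genes). Exact repeats of AGGTCA with a spacer of 1 or 4 bases, forms that PPARs and liver X receptors bind, were in none. They are in only 0.0228% and 0.0199% of all regions. With 57 regions none was to be found in any case, and nothing is read from it. A match is a description of these letters and not evidence of binding, and the lack of a match does not show that binding is absent.

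Stretches of 30 bases are shown from the start regions of SCD and ACACA, the largest rises with a matched region, and of ACLY, the first enzyme of synthesis, all with NF-Y boxes, and of ACSL1 and MID1IP1, with the sterol element. Each reads 5′ to 3′ on the strand of its gene, and capitals mark the motif, written as ATTGG or GTGGGGTGA where it lies on the other strand. Positions give the first base of the match, counted back from the start site. ACACA, ACLY and ACSL1 have several start regions, of which ACSL1 has the sterol element in 1 of 5, and which starts BT549 cells use was not measured. The ACACA stretch is from the region chr17:37299718-37300017. Its region chr17:37359047-37359346 has CCAAT at -226 only, and its most upstream region, chr17:37406787-37407086, has none.
SCD, chr10:100346992-100347021 (+), motif at -229: gattgcgccgagCCAATggcaacggcagga
SCD, chr10:100347035-100347064 (+), motif at -186: aattcccttcggCCAATgacgagccggagt
ACACA, chr17:37299897-37299926 (-), motifs at -155 and -136: gataATTGGtattatttgttttgATTGGat
ACLY, chr17:41919071-41919100 (-), motif at -136: aagccagcagcgaATTGGgaggagccctgg
ACLY, chr17:41919029-41919058 (-), motif at -94: ggaacgcgtgtggCCAATcgcggggccgtt
ACSL1, chr4:184805774-184805803 (-), motif at -242: gtggagcaGTGGGGTGActttgctgctggc
MID1IP1, chrX:38801409-38801438 (+), motif at -40: aggggcggtgGTGGGGTGAttccaagggcc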

How the data were processed

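Poly(A) RNA of 6 BT549 cultures was sequenced by the authors as single-end reads, aligned to hg19 with STAR (2.6.1d in the submitters' processing notes) and counted per gene with the iGenomes UCSC annotation. The authors deposited these counts without normalisation, as a table of the series that equals the reverse-strand column of a table per library. The counts hold uniquely mapped reads on 1 gene. Reads on no gene (37.7% to 41.1% of a library) entered neither library sizes nor tests. The total of 16093978 to 18246254 counts per library sets the precision, and intervals cover counting error only.

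Counts were analysed in R 4.3.3 with edgeR 4.0.16. Genes above 1 CPM in 3 or more libraries were kept (12186 of 23346), scaled with TMM and compared with the quasi-likelihood test without a replicate block, called where the p-value adjusted by Benjamini-Hochberg did not exceed 0.05. The study used the likelihood ratio test, which is an alternative here. The standard error (SE) of a log2 fold change was taken as its size over the root of the F statistic. CPM values carry the TMM scaling. With 3 libraries a group, an exact permutation test of 1 gene cannot give a p-value below 0.1. On simulated counts the test recovered 198 of 200 genes changed 2-fold (99%), with 5 false calls among 12093 genes. In that simulation few genes changed, as many up as down, and every gene had the same dispersion. In the real libraries 72.9% of genes were called, so the simulation does not give the error rate of these calls. No library was counted as a repeat of another. Replicates differed by more than sampling noise, but libraries made from 1 culture could do so too, so this does not show separate cultures.

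The 37 genes, the pathway and marker lists and the motifs were chosen with earlier results of these data known. Each of the 37 is named, those called with an absolute log2 fold change of at least 0.5 with each library's value. Of each list the 2 largest rises and 2 largest falls with at least 5 CPM in the higher group are named, and 8 regulators by name. Results of some single genes are not given in this text. Lengths and positions come from GENCODE 44 on GRCh37, start regions from RefSeq (GRCh38.p14). Ratios of low counts have exact 95% binomial intervals. Alternatives were the likelihood ratio test, DESeq2 1.42.0, DESeq2's size factors, total-count scaling, no filter, filterByExpr, a replicate block, both strands and leaving out each library. Python 3.11.15 with pandas 2.3.3 and scipy 1.17.1 was used.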

Additional observations from a re-analysis of the deposited data

Results flagged for a closer look

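Reads antisense to the genes enter no comparison above. Among the 37 genes, 3 had antisense levels in each BNC2 siRNA library above each NC siRNA library, with at least 10 such reads in each knockdown library. FASN had 12.0 ± 2.51 CPM (SD, n = 3) against 5.89 ± 0.38 CPM with NC siRNA, which is 0.716% and 1.34% of its sense counts. SCD had 9.40 ± 2.87 CPM against 5.69 ± 0.59 CPM, which is 0.183% and 0.309% of its sense counts. In both genes the antisense level was highest in BNC2 siRNA replicate 2. This was not particular to them. Replicate 2 also had the most antisense reads of the knockdown libraries in ACLY (33, 58 and 29) and FADS2 (51, 89 and 49), though not in FABP3. FABP3 had 25, 24 and 19 antisense reads with BNC2 siRNA and 8, 16 and 17 with NC siRNA (1.34 ± 0.12 and 0.789 ± 0.30 CPM), more than its 10 sense reads after knockdown. In the other direction, antisense levels were lower in each BNC2 siRNA library in 3 genes. ACADVL had 92, 86 and 74 antisense reads with NC siRNA and 39, 45 and 41 with BNC2 siRNA (4.81 ± 0.36 and 2.47 ± 0.18 CPM), and ELOVL6 had 16, 20 and 11 against 8, 10 and 4. ACSL1 had at most 6 in any library. These differences were not tested.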

How the results depend on the processing

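Across 14 alternatives the number of the 37 genes that rose was 16 to 18 and the number that fell 9 to 11, and the number of all genes called was 8338 to 9662. Falls were 11 with total-count scaling, without a filter and with filterByExpr, of which the latter 2 test more low genes. Of the log2 fold changes of named genes under alternatives, 820 kept their direction and side of the threshold, 8 lost and 5 gained a call, and 7 turned sign. The sign of ELOVL5 turned with total-count scaling (-0.038) and with 1 library left out (-0.014 to 0.082), and that of NR1H3 without a filter (0.004) and with 1 library left out (-0.224 to 0.114). Neither was called in any of them. The lost and gained calls were those of ACACB, ME1, MID1IP1 and ELOVL6. The cause was not tested. Of the glycerolipid list 3 genes rose under total-count scaling, and 4 to 6 fell when 1 library was left out. Of the uptake list 3 to 6 fell when 1 library was left out.

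The replicate block gave 17 rises and 9 falls among the 37 genes and 8400 calls among all genes. The replicate numbers did not pair the libraries: same-numbered libraries had correlations of deviations of -0.26, -0.09 and -0.15. Among the 37 genes the call lost under the block was that of ACACB (0.41). Falls went from 7 to 5 in the oxidation list, 7 to 6 in the glycerolipid list, 5 to 4 in the uptake list and 5 to 4 among the regulators. Depth limits ACSL5, ACSL6, ELOVL3, FABP3, FABP4 and CD36, whose counts allow no precise fold change. For FABP5 the limit is that most of its transcript has copies elsewhere.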
